A study of Mus musculus with 4 samples.

Results

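The genes described are 10 members of the STAT, SOCS and PIM families: the transcription factor genes Stat3, Stat4, Stat5a and Stat5b, the feedback inhibitor genes Socs1, Socs2, Socs3 and Cish, and the kinase genes Pim1 and Pim2. They were chosen by name, through the mouse symbols of the Ensembl identifiers in the count tables, out of 50686 identifiers in all. Each of the 10 was found once. All 10 passed the filter on low counts, as did 15394 genes in total, and all 10 lay above the filter's level of 0.464 CPM, a read count scaled to library size, in every library.

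The study sequenced bulk RNA of cells taken from mouse spleen and lymph node, with RNA prepared from cell culture. There were 4 libraries, 1 each of Yap KO stimulated, WT stimulated, Yap KO unstimulated and WT unstimulated cells. In the same order, 19935523, 20976343, 25419974 and 22088392 reads fell in genes. No group had a replicate, so the error given with a single library is a counting interval and covers counting error only. Titles of the stimulated libraries carry the number 24 without a unit. The sources used here do not give the stimulus, the cell type or how cells were purified, the strain, age or number of animals, or the allele or Cre that defines Yap KO. Nothing says that the stimulated and unstimulated cells of a genotype came from separate animals, so genotype and cell source cannot be told apart. T cell and CD8 genes were abundant in all 4 libraries.

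STAT proteins are latent transcription factors. A cytokine brings its receptor chains together, the Janus kinases bound to them phosphorylate the receptor and a STAT, and the STAT dimer enters the nucleus and binds DNA. In T cells, interleukin 2 and its relatives act mainly through STAT5, interleukin 12 through STAT4, and interleukins 6 and 21 through STAT3. SOCS proteins and CIS, the product of Cish, are induced by STATs and shut the same receptors down, partly by blocking the kinases or docking sites and partly by recruiting a ubiquitin ligase through their SOCS box. PIM kinases need no activating phosphorylation, so their amount follows their transcription, which STATs raise. They promote survival and growth.

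The letters that STAT dimers typically bind, TTCNNNGAA, were looked up in the promoters of the members because feedback inhibitor genes are classic STAT targets. RefSeq promoter windows (GRCm38.p6), reaching from 250 bases before to 50 bases after a RefSeq start, were found for 9 of the 10 genes, in 13 windows. The motif reads the same on both strands. Of the 13 windows, it was found in 1 of Cish, with 2 matches, and in 1 of Socs3, with 1 match. Over all 32851 windows, 8.3% held at least 1 match and 0.457% held at least 2. The 13 windows are too few to compare with those shares. The longer spacing TTCNNNNGAA, found in 6.95% of all windows, was in none of the 13. The matches are shown 5′ to 3′ with the motif in capitals, since these genes lay at opposite ends of the stimulation comparison. The Cish stretch is on the plus strand of chr9:107296656-107296681, and its first match begins at the RefSeq start. The Socs3 stretch is on the minus strand of chr11:117969504-117969528, and its match begins 154 bases before the RefSeq start, at position -154. For both genes the RefSeq start lies inside the GENCODE gene span given further on, whose outer end differs, so these positions hold for the RefSeq start only.
Cish: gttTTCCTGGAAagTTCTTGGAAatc
Socs3: aaccagccTTCTTAGAAgggagggg
A match describes these letters and is not evidence that a STAT bound there in these cells.

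The first comparison asked how the members differed between stimulated and unstimulated cells. Of the 10, 7 rose and 1 fell: Cish, Socs2, Stat5a, Pim2, Stat3, Pim1 and Stat4 were higher in the stimulated libraries, and Socs3 was lower. Stat5b and Socs1 did not pass the test. Of all tested genes 33.3% rose and 34.1% fell, so a call in itself was common in this comparison. The median log2 ratio of the members, stimulated over unstimulated, was 0.63 in Yap KO and 0.95 in WT, beside -0.05 and -0.02 over all tested genes. Calls were made with edgeR's quasi-likelihood test, in an additive model of genotype and state, at an adjusted p threshold of 0.05 over all tested genes. With 1 residual degree of freedom, the model takes its error from differences between the genotypes in their response, since no culture was replicated. Each gene's error is drawn strongly toward that of the other tested genes, at a median prior of 7.98 degrees of freedom. Levels are TMM-scaled CPM. In bulk RNA, fewer cells of a type and less RNA per cell cannot be told apart.

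**Figure D1:**
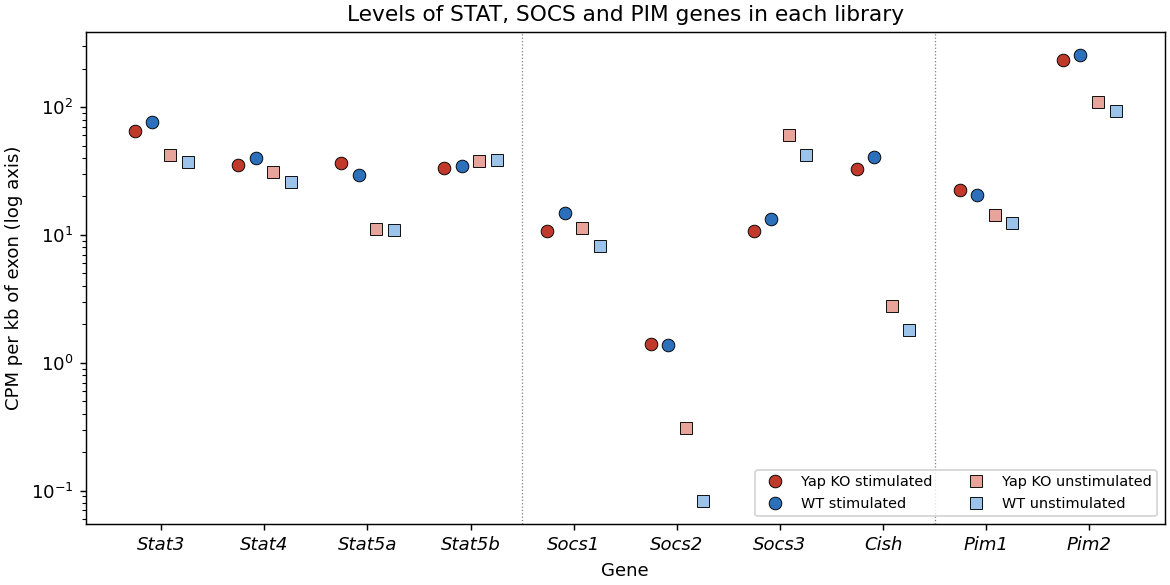
Level of each member in each library, in CPM per kilobase of annotated exon on a log axis. Circles are stimulated and paler squares unstimulated libraries, red is Yap KO and blue WT, and each point is 1 library. Cish lay among the STAT genes in WT stimulated cells and just under the lowest of them, Stat5b, in Yap KO stimulated cells. It lay near the bottom in both unstimulated libraries. Socs3 lay lower in both stimulated libraries, and Pim2 was the highest member in every library.

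Among the STAT genes, Stat5a, which transmits interleukin 2 signals, rose most. It lies on chromosome 11 from 100859351 to 100885169 (GRCm38, plus strand). Its level was 259 CPM in Yap KO stimulated and 209 CPM in WT stimulated cells, against 79.6 CPM in Yap KO unstimulated and 77.9 CPM in WT unstimulated cells. Both stimulated libraries were above both unstimulated ones, and the additive fit gave a log2 fold change of 1.56 ± 0.13 (SE, edgeR quasi-likelihood adjusted p = 6.56e-06). Its paralog Stat5b lies 8626 bases away on the same chromosome, from 100780731 to 100850724 on the minus strand, and its product acts on largely the same targets. Stat5b stood at 184 CPM in Yap KO stimulated and 191 CPM in WT stimulated cells, against 210 and 214 CPM in Yap KO and WT unstimulated cells. Its stimulated values were below its unstimulated ones, but the log2 fold change of -0.18 ± 0.12 did not pass the test (adjusted p = 0.208).

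The balance between both STAT5 genes therefore differed between the states. Per kilobase of exon, Stat5a made up 52.2% of the summed Stat5a and Stat5b level in Yap KO stimulated and 45.9% in WT stimulated cells, against 22.7% in Yap KO unstimulated and 22.0% in WT unstimulated cells. Of the 31-base words in Stat5a transcripts, 11.5% also occur in Stat5b, and 15.1% of those in Stat5b occur in Stat5a. Reads aligned in more than 1 place are listed apart from the genes, so both genes lose reads there and their shares are uncertain to that extent.

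Stat3, the main STAT of interleukin 6 and interleukin 21 signals, lies next to Stat5a, from 100885098 to 100939540 on the minus strand, and shares 72 exon bases with it on the opposite strand. It had 614 CPM in Yap KO stimulated and 724 CPM in WT stimulated cells, against 402 CPM in Yap KO unstimulated and 355 CPM in WT unstimulated cells. It rose in both genotypes, with a log2 fold change of 0.82 ± 0.14 (adjusted p = 0.000685). Stat4, which carries interleukin 12 signals, lies on chromosome 1 from 51987148 to 52107189. It had 136 CPM in Yap KO stimulated and 154 CPM in WT stimulated cells, against 120 and 101 CPM in Yap KO and WT unstimulated cells. The stimulated libraries were the higher ones, at a log2 fold change of 0.39 ± 0.14 (adjusted p = 0.0303). That call was lost with libraries scaled to total counts only (0.31, adjusted p = 0.0788), with no filter on low counts (0.39, adjusted p = 0.0926) and with only genes averaging 10 CPM or more (0.30, adjusted p = 0.0782). Of the Stat4 exon bases, 26.7% also belong to Gm28177 on the same strand, which had 6 to 22 reads per library.

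Of the SOCS genes, Cish had the largest rise of all members. Its product binds activated cytokine receptors and limits interleukin 2 and T cell receptor signals. The gene lies on chromosome 9 from 107296026 to 107302784. Its level was 210 CPM in Yap KO stimulated and 262 CPM in WT stimulated cells, against 17.9 CPM in Yap KO unstimulated and 11.6 CPM in WT unstimulated cells. These are 11.6-fold and 22.4-fold differences in Yap KO and WT, and the additive log2 fold change was 4.01 ± 0.22 (adjusted p = 5.67e-07). Its promoter window is the one with 2 motif matches printed above. Gm17041 lies opposite 7.5% of the Cish exon bases and had 1260 and 1639 reads in Yap KO and WT stimulated cells, against 140 and 70 reads in Yap KO and WT unstimulated cells. Reads that fit more than 1 gene are listed apart as ambiguous, at 0.64 to 0.76% of all reads listed, so both genes may lose reads there. The strand setting of the counting is not given in the sources used here. It therefore cannot be told whether the reads counted in the overlap came from Cish or Gm17041.

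Socs2, a STAT5-induced inhibitor best known for limiting growth hormone signals, moved with Cish from a far lower level. It lies on chromosome 10 from 95385362 to 95417180. It had 258 reads in Yap KO stimulated and 270 reads in WT stimulated cells, against 77 reads in Yap KO unstimulated and 18 reads in WT unstimulated cells, or 13.4, 13.2, 2.96 and 0.785 CPM. The stimulated libraries nearly coincided while the unstimulated ones did not, and the log2 fold change was 2.87 ± 0.39 (adjusted p = 0.000149).

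Socs3, the inhibitor of interleukin 6 family receptors, went the other way. It lies on chromosome 11 from 117966079 to 117970047. It had 31.2 CPM in Yap KO stimulated and 38.7 CPM in WT stimulated cells, against 176 CPM in Yap KO unstimulated and 122 CPM in WT unstimulated cells. Both stimulated libraries lay well below both unstimulated ones, with a log2 fold change of -2.07 ± 0.19 (adjusted p = 1.41e-05). Socs1, which blocks Janus kinases directly and restrains interferon gamma and interleukin 2 signals, lies on chromosome 16 from 10782240 to 10785536. It had 31.2 CPM in Yap KO stimulated and 43.2 CPM in WT stimulated cells, against 33.0 CPM in Yap KO unstimulated and 23.7 CPM in WT unstimulated cells. The groups overlapped, since the Yap KO libraries differed little between the states and the WT libraries were 1.82-fold apart, and the log2 fold change of 0.39 ± 0.22 did not pass the test (adjusted p = 0.139).

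Both PIM genes rose with stimulation. Pim2 lies on chromosome X from 7878262 to 7883432, and its kinase supports protein synthesis and survival in activated lymphocytes. It had 658 CPM in Yap KO stimulated and 720 CPM in WT stimulated cells, against 308 CPM in Yap KO unstimulated and 259 CPM in WT unstimulated cells, and its log2 fold change was 1.29 ± 0.14 (adjusted p = 3.54e-05). Pim1, a kinase with overlapping substrates, lies on chromosome 17 from 29490753 to 29496112. It had 75.9 CPM in Yap KO stimulated and 69.3 CPM in WT stimulated cells, against 48.6 CPM in Yap KO unstimulated and 41.6 CPM in WT unstimulated cells. Its stimulated libraries were the higher ones in both genotypes, with a log2 fold change of 0.69 ± 0.13 (adjusted p = 0.00131). Gm26885 lies opposite 14.5% of the Pim1 exon bases and had 399 to 592 reads per library, counted apart from those of Pim1. Without the strand setting, it cannot be told which of both genes the reads in the overlap came from.

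Levels of different genes were compared per kilobase of exon. Pim2 led in every library, with 235 and 258 CPM per kilobase in Yap KO and WT stimulated cells and 110 and 92.6 in Yap KO and WT unstimulated cells. Next came Stat3 in the stimulated libraries, at 64.5 CPM per kilobase in Yap KO and 76.0 in WT, and Socs3 in the unstimulated ones, at 60.8 and 42.3. Socs3 stood eighth in Yap KO stimulated and ninth in WT stimulated cells, at 10.8 and 13.4 CPM per kilobase. Cish ranked ninth in both unstimulated libraries, at 2.79 and 1.81 CPM per kilobase in Yap KO and WT, and stood at rank 3 in WT stimulated cells, at 40.8. In Yap KO stimulated cells it was sixth, at 32.7. Socs2 was last throughout, at 1.40 and 1.39 CPM per kilobase in Yap KO and WT stimulated cells and 0.311 and 0.0824 in the unstimulated ones. Counting intervals of neighbours overlapped for Stat5a, Stat4, Stat5b and Cish in Yap KO stimulated cells and for Cish and Stat4 in WT stimulated cells. They also overlapped for Socs1 and Socs3 in both stimulated libraries, for Socs1 and Stat5a in Yap KO unstimulated cells, and for Stat5b and Stat3 in WT unstimulated cells. Reads on exon bases shared with another gene may be lost, which holds for 26.7% of the Stat4 exon bases. The rank of Stat4 beside Cish and its other neighbours is uncertain to that extent. Summed per kilobase, the 2 PIM genes reached 258 CPM in Yap KO stimulated and 278 CPM in WT stimulated cells, against 125 CPM in Yap KO unstimulated and 105 CPM in WT unstimulated cells. The 4 SOCS genes summed to 55.6 CPM per kilobase in Yap KO stimulated and 70.4 in WT stimulated cells, against 75.2 and 52.3 in Yap KO and WT unstimulated cells.

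**Figure D2:**
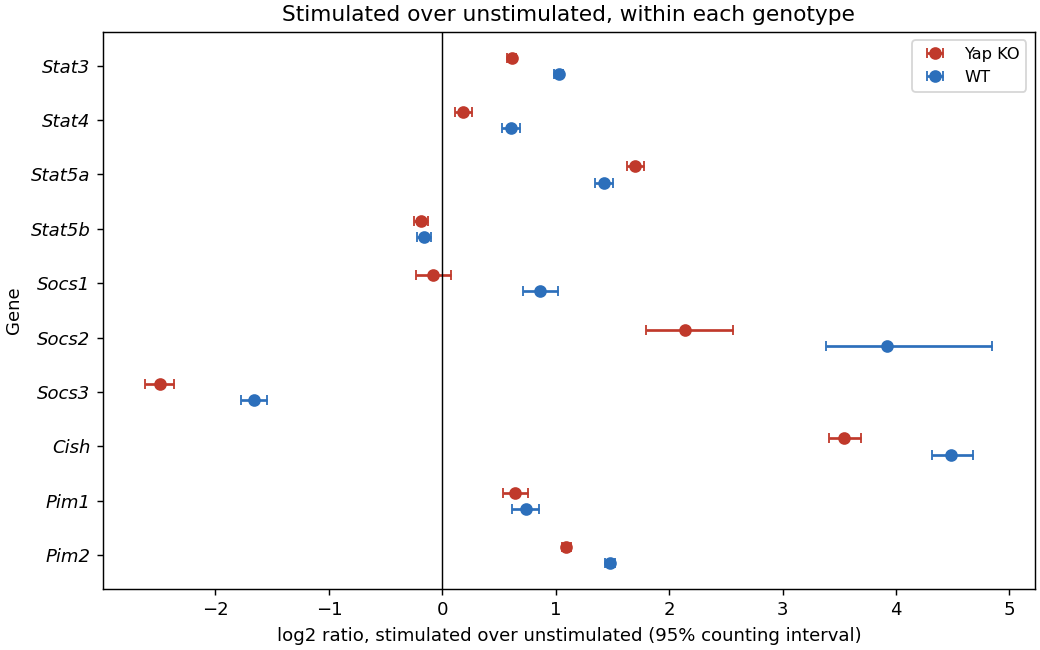
Log2 ratio of stimulated over unstimulated for each member (prior count 2), in Yap KO (red) and WT (blue). Points are single-library ratios and bars are exact 95% counting intervals. Cish and Socs2 lay highest, Socs3 lowest, and for 9 of the 10 members the Yap KO point lay to the left of the WT point, the exception being Stat5a. Over all tested genes, 54.8% had the lower ratio in Yap KO.

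The second comparison asked how the members differed between Yap KO and WT cells. None of the 10 passed the genotype test in the additive edgeR fit, at unadjusted p-values of 0.180 or more, and DESeq2 called none either. Of all tested genes 0.838% were called higher in Yap KO and 0.559% lower, so calls were rare for any gene. Single log2 ratios among stimulated cells ran from -0.47 for Socs1 to 0.31 for Stat5a, and among unstimulated cells from -0.02 for Stat5b to 1.81 for Socs2. The additive fit asks only for a difference that was alike in both states. Stat3, Stat4, Socs1, Socs3, Cish and Pim2 had ratios above 0 in unstimulated and below 0 in stimulated cells. Such ratios offset each other in that fit and add to its error, so it cannot show a difference limited to 1 state.

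**Figure D3:**
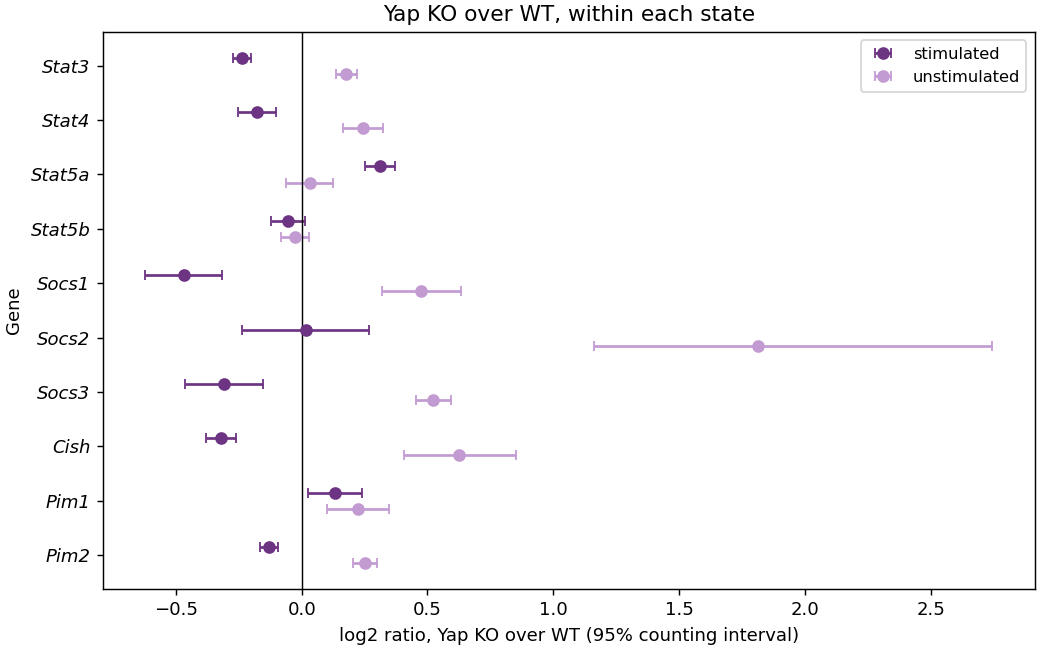
Log2 ratio of Yap KO over WT for each member (prior count 2), in stimulated (dark) and unstimulated (light) cells. Points are single-library ratios and bars are exact 95% counting intervals. In unstimulated cells 8 of the 10 intervals lay above 0, and in stimulated cells 6 lay below 0 and 2 above.

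In unstimulated cells 9 of the 10 members had a higher value in Yap KO. The median log2 ratio was 0.25 over the members and 0.03 over all tested genes. For 8 members the exact 95% counting interval lay above 0, which was the case for 29.1% of all tested genes. For none did it lie below 0, beside 20.3%. Such an interval narrows with more reads. Of the 10 members 9 averaged 10 CPM or more, as did 9184 of the 15394 tested genes. Shares of intervals over all tested genes, here and below, are therefore not matched for read number. Socs2 had the widest gap, with 77 reads in Yap KO and 18 in WT, a log2 ratio of 1.81 (interval 1.16 to 2.74). It was the single member at least 2-fold apart, beside 4.81% of tested genes at least 2-fold higher and 3.75% at least 2-fold lower. Cish had a log2 ratio of 0.62 (0.41 to 0.85), Socs3 0.52 (0.46 to 0.59) and Socs1 0.48 (0.32 to 0.64). Pim2, Stat4, Pim1 and Stat3 had ratios of 0.25, 0.24, 0.22 and 0.18. Stat5a and Stat5b, at 0.03 and -0.02, had intervals that held 0.

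In stimulated cells most members had a lower value in Yap KO. The median log2 ratio was -0.15 over the members and -0.0007 over all tested genes. Of the 10, 6 had a counting interval below 0, beside 23.1% of all tested genes, and 2 had one above 0, beside 23.9%. Socs1 had the lowest log2 ratio, -0.47 (-0.62 to -0.32), followed by Cish at -0.32 (-0.38 to -0.26), Socs3 at -0.31 (-0.47 to -0.16), Stat3 at -0.24, Stat4 at -0.18 and Pim2 at -0.13. Stat5a was higher in Yap KO, at 0.31 (0.25 to 0.37), as was Pim1 at 0.13 (0.03 to 0.24). The intervals of Socs2 and Stat5b held 0. No member was 2-fold apart, beside 4.02% of tested genes at least 2-fold higher and 5.35% at least 2-fold lower. With 1 library on each side, a difference between cultures of 1 genotype would give intervals of the same kind.

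The stimulation response, the log2 ratio of stimulated over unstimulated, was lower in Yap KO than in WT for 9 of the 10 members. Over all tested genes this was so for 54.8%. For 7 members the counting interval of the difference lay below 0 and for 1, Stat5a, above it. Over all tested genes these shares were 24.2% and 17.8%, not matched for read number. The median difference was -0.42 over the members and -0.05 over all tested genes. All 4 SOCS genes were among the 7. Socs2 differed by -1.78 (-2.53 to -1.03) and was the single member past 2-fold, beside 7.62% of tested genes at least 2-fold lower and 5.35% at least 2-fold higher. Socs1 differed by -0.94 (-1.16 to -0.73), Cish by -0.94 (-1.17 to -0.72) and Socs3 by -0.83 (-0.9998 to -0.67). For Cish and Socs2 this was a smaller increase in Yap KO, for Socs3 a larger decrease, and for Socs1 a ratio of -0.08 in Yap KO beside 0.86 in WT. Stat4, Stat3 and Pim2 differed by -0.42, -0.42 and -0.38, and Stat5a by 0.28 (0.17 to 0.39). The intervals of Stat5b and Pim1 held 0. The difference has no residual degree of freedom in these 4 libraries, so it was not tested.

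Other genes of the pathway were counted from lists drawn up by their roles. The stimulation calls of each list stand beside 33.3% of all tested genes called higher and 34.1% called lower. Of the 8 remaining STAT, SOCS and PIM genes, 2 rose and 2 fell with stimulation. Pim3, the last PIM kinase gene, rose by 1.82 ± 0.15 on the log2 scale (adjusted p = 7.32e-06) and Socs4 by 0.82 ± 0.18. Stat2, of type I interferon, fell by 0.59 ± 0.21 (adjusted p = 0.0309). Most of that fall was in Yap KO, with a log2 ratio of -1.09, beside -0.10 in WT. Stat6, of interleukin 4, had -0.10 ± 0.12 and Socs5, Socs6 and Socs7 had 0.32, -0.26 and -0.42, none past the test. Pim3 was thus the PIM gene with the largest fold change, at 153 and 117 CPM in Yap KO and WT stimulated cells, against 36.6 and 39.5 CPM in Yap KO and WT unstimulated cells.

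Janus kinase genes fell in 3 of 4 cases and none rose. Jak1, which serves nearly every cytokine receptor of T cells, had 377 and 389 CPM in Yap KO and WT stimulated cells, against 2223 and 2066 CPM in Yap KO and WT unstimulated cells, a log2 fold change of -2.48 ± 0.14 (adjusted p = 7.40e-07). Tyk2 fell by 1.002 ± 0.12 and Jak3, the partner of the common gamma chain, fell by 0.73 ± 0.13. Jak2 had 0.01 ± 0.12.

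Receptor subunits fell in 11 of 19 cases and 4 rose. Those that rose were Il2ra, the high-affinity chain for interleukin 2, at 6.72 ± 0.27, Il12rb2 at 4.28 ± 0.38, Il15ra at 1.66 ± 0.23 and Il12rb1 at 1.61 ± 0.26. Of the exon bases of Il12rb2, 40.0% lie opposite another gene. Among those that fell were Il6ra and Il6st, both chains of the interleukin 6 receptor, which had log2 fold changes of -4.60 ± 0.15 and -2.69 ± 0.13, and Il7r, at -3.77 ± 0.24. Socs3, which acts on Il6st, fell in the same libraries. Of the 15 cytokine ligand genes 9 passed the filter. Of these, Il2, Il12a, Il21, Il23a and Csf2 were under the filter's level in both unstimulated libraries and passed through the stimulated ones, so no count of ligand calls is given. Il2 had 1394 and 228 reads in Yap KO and WT stimulated cells, against 0 and 2 reads in Yap KO and WT unstimulated cells, and Lif rose by 5.47 ± 0.21. In the stimulated libraries Il2 had a log2 ratio of 2.68 for Yap KO over WT. Cish, a gene that interleukin 2 is known to induce, had -0.32. A link between these values was not tested. The 6 ligand genes that did not pass were Il4, Il6, Il7, Il10, Il12b and Il27.

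**Figure D4:**
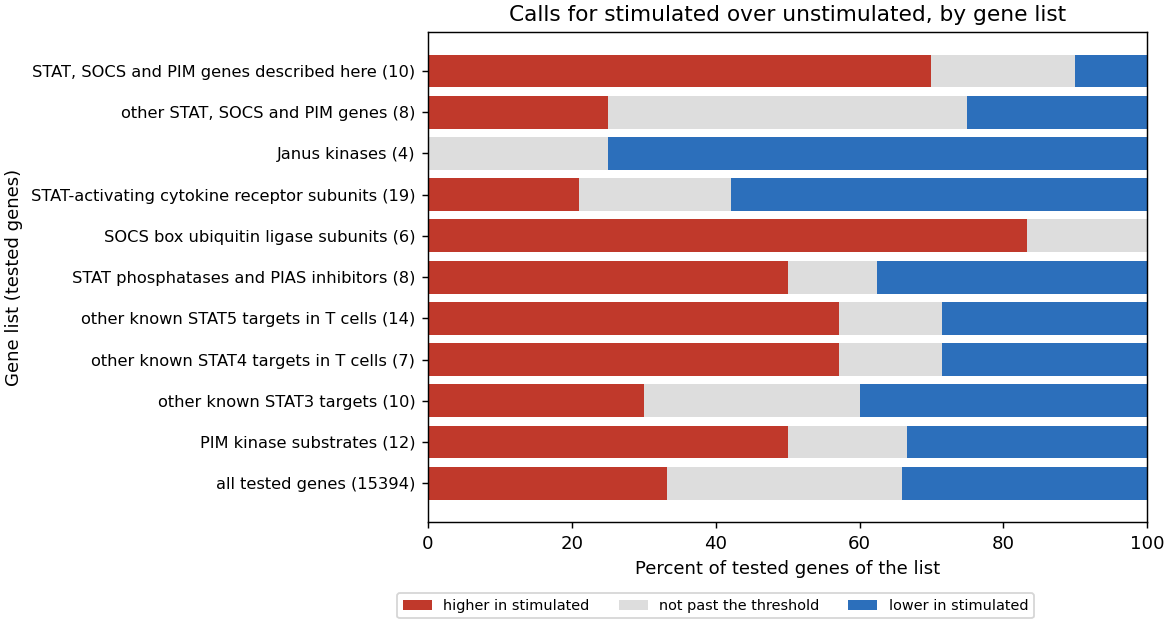
Percent of the tested genes of each list that were called higher (red, left) or lower (blue, right) in stimulated over unstimulated cells, with the number of tested genes in parentheses and all tested genes at the bottom. Janus kinases and receptor subunits were called lower more than higher, and the 6 SOCS box ubiquitin ligase subunits had no gene called lower. Ligands are not drawn, since most passed the filter through the stimulated libraries. The STAT3 targets drawn include Il21 and Maf, and the PIM substrates Cdkn1a and Cdc25c, which passed the filter through a single state.

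The 6 listed subunits of ubiquitin ligases that SOCS boxes recruit include both Cul5 and Cul2, so they are not parts of a single ligase. Of the 6, 5 rose, with the adaptor gene Eloc at 1.63 ± 0.14 and Cul2 at 1.61 ± 0.13. Cul5, the scaffold that most SOCS boxes prefer, had 0.25 ± 0.14 and did not pass the test. Of 8 phosphatase and PIAS genes that restrain STATs, 4 rose and 3 fell, beside 33.3% and 34.1% of all tested genes. Ptpn2, which removes phosphate from STAT proteins and Janus kinases, rose by 0.59 ± 0.13, Pias2 rose by 1.12 ± 0.13 and Pias1 fell by 1.05 ± 0.14.

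Of 14 other known STAT5 targets, 8 rose and 4 fell. Here and for the lists that follow, 33.3% of all tested genes rose and 34.1% fell. Gzmb, the cytotoxic granule protease, had 2433 and 2853 CPM in Yap KO and WT stimulated cells, against 27.1 and 15.4 CPM in Yap KO and WT unstimulated cells, a log2 fold change of 6.998 ± 0.28. The survival gene Bcl2l1 rose by 2.53 ± 0.13 and was the single gene of this list called higher in Yap KO, by 0.76 (adjusted p = 0.0244). Its relative Bcl2 fell by 1.08 ± 0.22. Of 7 tested STAT4 targets 4 rose and 2 fell, with Ifng at 5.93 ± 0.44 and Il18r1 at -3.40 ± 0.17. Il18r1 and Il18rap were called higher in Yap KO, by 1.43 (adjusted p = 0.00439) and 1.61 (adjusted p = 0.00106), and such genotype p-values compare 2 sources of cells, so they overstate what is known of animals. Of 10 STAT3 targets 3 rose and 4 fell, with Batf at 0.67 ± 0.15 and Fos at -4.54 ± 0.27. Il21, called higher, was under the filter's level in both unstimulated libraries, and Maf, called lower, in both stimulated ones. Each passed through the other state, so the direction of those calls was set by the filter. Of 12 genes of PIM substrates 6 rose and 4 fell. The cell cycle inhibitors were divided, as Cdkn1a rose by 8.65 ± 0.22 and Cdkn1b fell by 2.85 ± 0.22. Cdkn1a and Cdc25c, both called higher, were under the filter's level in both unstimulated libraries. They passed through the stimulated ones, so the direction of their calls was set by the filter.

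For each member, the gene whose pattern over the 4 libraries lay nearest was found among genes averaging 10 CPM or more, by the Euclidean distance between mean-centred log2 CPM values. Over only 4 libraries many genes lie close, so the likeness is a description. For Cish it was Prdx4, an endoplasmic reticulum peroxiredoxin, at a distance of 0.107, with 44.8 and 55.1 CPM in Yap KO and WT stimulated cells and 3.54 and 2.53 CPM in Yap KO and WT unstimulated cells. For Socs3 it was Inpp5d, the lipid phosphatase SHIP1, at 0.154, and for Socs2 it was Adap1, at 0.256, the largest distance of the 10. Stat5a lay nearest to Cd320 at 0.033, Stat3 to Gipc1 at 0.051, Stat4 to Rab28 at 0.015 and Stat5b to Rnf14 at 0.020. Pim1 lay nearest to Ube2l3 at 0.031, Pim2 to Mbnl3 at 0.024 and Socs1 to Ccdc107 at 0.074.

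Checks on the libraries bear on all these values. Yap1, the gene of the genotype label, had 2, 3, 0 and 1 reads in Yap KO stimulated, WT stimulated, Yap KO unstimulated and WT unstimulated cells, at or under the floor of 3 reads, so the label could not be checked. The T cell genes Cd3d, Cd3e, Cd3g and Cd247 summed to 703 and 717 CPM in Yap KO and WT stimulated cells, against 2260 and 2209 CPM in Yap KO and WT unstimulated cells. Cd8a and Cd8b1 summed to 521 and 605 CPM, against 2295 and 2150 CPM, and Cd4 had at most 3 reads. All 6 of these T cell and CD8 genes fell with stimulation.

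Markers of other cells also moved. The 2 measured gamma-delta T cell markers, Trdc and Sox13, both fell, summing to 37.3 and 23.6 CPM in Yap KO and WT stimulated cells, against 377 and 241 CPM in Yap KO and WT unstimulated cells, and Sox13 was called higher in Yap KO. The 5 B cell markers summed to 20.5 and 10.2 CPM, against 42.7 and 29.2 CPM, with 2 falling. The 3 NK cell markers summed to 71.6 and 54.6 CPM, against 118 and 53.9 CPM, with 1 falling, Klrb1c at 0 reads in Yap KO stimulated cells and Ncr1 at 0 reads in WT stimulated cells. Eomes, which CD8 T cells can also express, made up nearly all of that sum. The 2 plasma cell markers summed to 6.37 and 5.43 CPM, against 31.5 and 38.2 CPM, and 1 fell. The 5 monocyte and macrophage markers summed to 24.1 and 18.1 CPM, against 30.8 and 25.5 CPM, with 1 falling and Adgre1 at 0 reads in both stimulated libraries. The 4 dendritic cell markers summed to 25.1 and 14.1 CPM, against 14.4 and 8.07 CPM, with 1 rising, 2 falling and Siglech at 0 reads in both stimulated libraries. The 3 neutrophil markers summed to 0.0518 and 0.0490 CPM, against 0.5004 and 1.83 CPM, with S100a8 and S100a9 at 0 reads in both stimulated libraries. The 3 erythroid markers summed to 0.0518 and 0.245 CPM, against 1.69 and 2.75 CPM, with 1 falling. The part of these cells in the members' values was not tested.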

How the data were processed

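Each library has 1 deposited file of unnormalized counts by Ensembl identifier, laid out as htseq-count writes it. Per the submitters' processing notes, the build was mm9. Aligner, annotation release and strand setting were not given in the sources used here. Reads in genes made up 35.6 to 39.7% of all reads listed, and the 5 summary entries, with 48.3 to 52.5% in no gene, were left out. Of 50686 identifiers 50376 matched a symbol. Coordinates are from GENCODE M21 on GRCm38, and promoter sequences from RefSeq on GRCm38.p6.

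Genes were kept with filterByExpr by state (minimum count 10) and scaled with TMM in edgeR 4.0.16. Additive genotype and state terms were tested with glmQLFit and glmQLFTest and adjusted with Benjamini-Hochberg over 15394 genes. A standard error is the log2 fold change over the root of its F statistic. Single ratios used a prior count of 2, with exact 95% conditional binomial intervals. The difference of responses used a normal interval. DESeq2 1.42.0 was an alternative.

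The members, lists and tests were chosen with earlier results of these data known. Named genes are the members, genes of the lists and each member's nearest gene among those averaging 10 CPM or more. Trgc1, a listed marker, was not used here, and some listed genes are counted but not reported here by name. No molecular identifiers are reported, so intervals and floors cover counting error only.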

Additional observations from a re-analysis of the deposited data

Results flagged for a closer look

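Socs1 had a log2 stimulation ratio of -0.079 in Yap KO (95% counting interval -0.23 to 0.07) and 0.86 in WT (0.71 to 1.02). The signs were opposite in the 2 genotypes, which is why it is given here. The Yap KO interval holds 0, and the difference was not tested, since there was 1 library per group.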

How the results depend on the processing

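No paired analysis was possible because every title carries the same replicate number, 1, so the groups share a single number. No library could be left out, since 3 libraries leave no residual degree of freedom, and the ratios within 1 genotype or state stand in the report. The members' counts, 7 higher and 1 lower with stimulation and none for genotype, became 6 and 1 with total counts only and with no filter, and 5 and 1 of the 9 members averaging 10 CPM or more. They did not change with DESeq2, DESeq2 size factors or the legacy dispersion, an alternative added after seeing the data. Stat4 was the call lost, and Socs2 averages under 10 CPM. Over all genes, 129 were called higher and 86 lower in Yap KO. With no filter these were 23 and 18, from 25195 genes, with the 10 CPM minimum 62 and 53, from 9184 genes, and 56 were lower with total counts only. The cause was not tested beyond the number of genes entered. Socs1 in the genotype comparison was 0.0023 and changed sign to -0.0047 with DESeq2 size factors, -0.012 with total counts only, -0.0034 with DESeq2 and -0.015 with the 10 CPM minimum, at adjusted p-values of 0.991 to 1.00. Scaling to total counts only lowered 10 single stimulation ratios by more than their counting interval, with no change of sign. Depth limits Socs2 most: its 18 reads in WT unstimulated cells have an exact interval of 10.7 to 28.4.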

Other observations

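Receptor subunits also had lower stimulation responses in Yap KO than in WT. Among the 19 receptor subunits the counting interval of the response difference, Yap KO minus WT, lay below 0 for 15 and above 0 for 1. Over all tested genes it lay below 0 for 24.2% and above 0 for 17.8%. These shares are not matched for read number, and an interval narrows with more reads. The median difference was -0.60 over the receptor subunits and -0.05 over all tested genes. Il2rb, the signalling chain that STAT5 depends on for interleukin 2, had 345 and 397 CPM in Yap KO and WT stimulated cells, against 837 and 254 CPM in Yap KO and WT unstimulated cells. Il12rb2 had 196 and 422 CPM in Yap KO and WT stimulated cells, against 19.1 and 10.95 CPM in Yap KO and WT unstimulated cells. Of the 8 phosphatase and PIAS genes 6 had an interval below 0 and none above, with a median of -0.36.

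The other lists varied, and their counts stand beside 24.2% of all tested genes with an interval below 0 and 17.8% with one above. Those shares are likewise not matched for read number. The STAT3 targets had 4 intervals below 0 and 3 above, with a median of -0.67, the STAT5 targets 6 and 4, with a median of -0.14, and the PIM substrates 4 and 2, with a median of -0.01. The Janus kinases had 2 below and none above, with a median of -0.12, and the other STAT, SOCS and PIM genes 3 and 1, with a median of -0.18. The SOCS box ubiquitin ligase subunits had 2 below and 3 above, with a median of 0.06, and the STAT4 targets had 3 on each side. Tbx21, the transcription factor T-bet, had 134 and 132 CPM in Yap KO and WT stimulated cells, against 98.2 and 17.2 CPM in Yap KO and WT unstimulated cells, a response 2.48 lower in Yap KO on the log2 scale. Ifng had 931 and 136 CPM in Yap KO and WT stimulated cells, against 7.81 and 4.97 CPM in Yap KO and WT unstimulated cells, a response 2.13 higher in Yap KO on the log2 scale. With 1 library per group these differences were not tested.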
